A study of Mus musculus with 24 samples.

Results

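The myogenic determination factors are the nuclear regulators, together with 1 membrane protein of cell fusion, that carry a cell from muscle progenitor to muscle fibre. The 7 genes described here are Pax7, Myf5, Myod1, Myog, Myf6, Mymk and Msc, out of 18193 genes on the array. Each was found by its symbol in the array's annotation, and where a gene had more than 1 probe set, the one with the highest mean over 24 arrays stood for it. All 7 were found. A gene was tested when it exceeded the array's own median on at least 3 arrays, which 6 of the 7 did, among 12811 genes tested. Myf6 did not, and its values are given from a fit without that filter.

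RNA came from C57B6 mouse embryos at embryonic day 14.5 and was hybridised to 24 Affymetrix arrays. There were 8 groups of 3 arrays, namely control and mutant, each at the distal and at the proximal end of the upper jaw (maxilla) and the lower jaw (mandible). The labels call the pieces distal or proximal bone. Mutants came from a cross of Wnt1-Cre;Tgfbr2 fl/+ with Tgfbr2 fl/fl mice and were told from littermates by their cleft palate and skull vault defect. The controls' own alleles are not in the labels, so whether any carried Wnt1-Cre or 1 floxed allele is not known here. Wnt1-Cre acts in neural crest cells, which give rise to the bone, cartilage and connective tissue of the face. It does not act in the head mesoderm from which jaw muscle arises, so the deletion of the TGF-beta receptor is aimed at the surroundings of the muscle cells and not at the muscle cells. The labels do not say that replicates were separate embryos, so the p-values rest on a spread between samples that could be technical.

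Pax7 marks muscle progenitors and later satellite cells, and is also made in cranial neural crest and nasal tissue. Myf5 and Myod1 are basic helix-loop-helix factors that commit a cell to the muscle lineage, Myog drives the committed myoblast to differentiate, and Myf6 (MRF4) acts in commitment and again, more strongly, in maturing fibres. Mymk encodes myomaker, a membrane protein required for myoblasts to fuse. Msc (musculin, MyoR) is a related helix-loop-helix repressor and an early regulator of jaw-closing muscles.

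Promoter sequence was at hand for 3 of the 7 genes, namely Myog, Pax7 and Myf5 (RefSeq, GRCm38.p6). The 250 bases before the start of each are shown; across the arrays Myog and Myf5 each followed the contractile list mean at a Pearson's r of 0.91 and Pax7 at -0.61. Capitals mark matches on either strand to an E-box (CANNTG, the motif bound by the helix-loop-helix factors), to a MEF3 core (TCAGGTT, a motif known from muscle gene promoters) and to a loose MEF2 core (CTANNNNTA). The last was chosen after the sequence was seen.
Myog chr1:134289754-134290003, plus strand: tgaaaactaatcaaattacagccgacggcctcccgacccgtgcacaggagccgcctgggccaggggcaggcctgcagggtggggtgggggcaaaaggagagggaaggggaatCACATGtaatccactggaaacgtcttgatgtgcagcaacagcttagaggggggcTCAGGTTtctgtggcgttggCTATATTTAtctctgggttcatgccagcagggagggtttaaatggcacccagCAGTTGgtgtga
Pax7 chr4:139832969-139833218, minus strand: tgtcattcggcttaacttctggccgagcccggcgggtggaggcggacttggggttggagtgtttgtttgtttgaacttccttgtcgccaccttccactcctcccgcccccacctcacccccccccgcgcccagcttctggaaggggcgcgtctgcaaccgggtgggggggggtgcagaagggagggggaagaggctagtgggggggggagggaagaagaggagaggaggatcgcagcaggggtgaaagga
Myf5 chr10:107486135-107486384, minus strand: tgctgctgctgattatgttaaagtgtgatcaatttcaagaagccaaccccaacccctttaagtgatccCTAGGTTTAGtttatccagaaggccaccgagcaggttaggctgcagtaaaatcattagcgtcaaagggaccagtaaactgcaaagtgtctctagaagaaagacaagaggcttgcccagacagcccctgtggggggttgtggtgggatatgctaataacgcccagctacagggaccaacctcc

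The Myog stretch held 2 E-boxes, 138 and 12 bases before the start, 1 MEF3 core at 84 bases and 1 loose MEF2 core at 64 bases. The Pax7 stretch held none of the 3 letter patterns. The Myf5 stretch held 0 E-boxes, 0 MEF3 cores and 2 overlapping loose MEF2 cores, 182 and 181 bases before the start, so Myf5 and Myog, which followed the contractile genes alike, did not share the first 2 patterns. Among 32851 promoters of the same length, 66.2% held an E-box, 3.49% the MEF3 core and 19% the loose MEF2 core. The E-box with a GC centre (CAGCTG) was in 13% of promoters and in none of these stretches, and the full MEF2 consensus was in 2.92% and in none of these. Myf5 and Myf6 are neighbours on chromosome 10, with 0 protein-coding genes between them, and differed in their pattern across the arrays as described below.

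All values are robust multi-array average (RMA) values on a log2 scale, so a difference of 1 is a doubling. Hand2, a transcription factor of the lower jaw, was 9.5 to 13.0 on the mandible arrays and 5.3 to 7.4 on the maxilla arrays, so the jaw labels held on every array; this check was chosen after its values were seen. Of the skeletal muscle markers, Actc1 (10.4 to 14.1), Myl1, Mylpf, Tnni1 and Myh3 lay above the array median on all 24 arrays. Tnnt2 and Chrna1 did so on 22 arrays, Ttn on 20, Myh8 on 15 and Ckm on 9. The heart muscle markers Myl7 (5.2 to 5.9), Nppa (4.2 to 4.6) and Tbx20 (5.1 to 5.5) lay above the array median on 0 arrays and Nkx2-5 (6.4 to 7.2) on 3. Tgfbr2 itself was 11.5 to 12.1 in controls and 12.2 to 12.6 in mutants. No source used here says whether its probe set reads the deleted part, so this value checks no genotype label. Of the mutant maxilla arrays, 3 stood apart, namely distal 1 and proximal 1 and 2. Their mean over olfactory and nasal markers, centred on each gene's mean, was -1.47 to -0.52, against 0.37 to 3.27 on the control maxilla arrays and 0.66 to 2.42 on the other 3 mutant maxilla arrays. Their cartilage mean was also low, at -2.64 to -2.38, against -0.07 to 1.62 in control maxilla. The members and gene lists of the proximal maxilla are given below with and without them. The cartilage mean was low on mutant distal mandible 1 and 3 as well (-2.08 and -1.82), against 0.30 on mutant distal mandible 2 and -0.30 to 0.99 in control distal mandible. In bulk tissue, fewer cells of a type and less RNA per cell cannot be told apart.

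**Figure D1:**
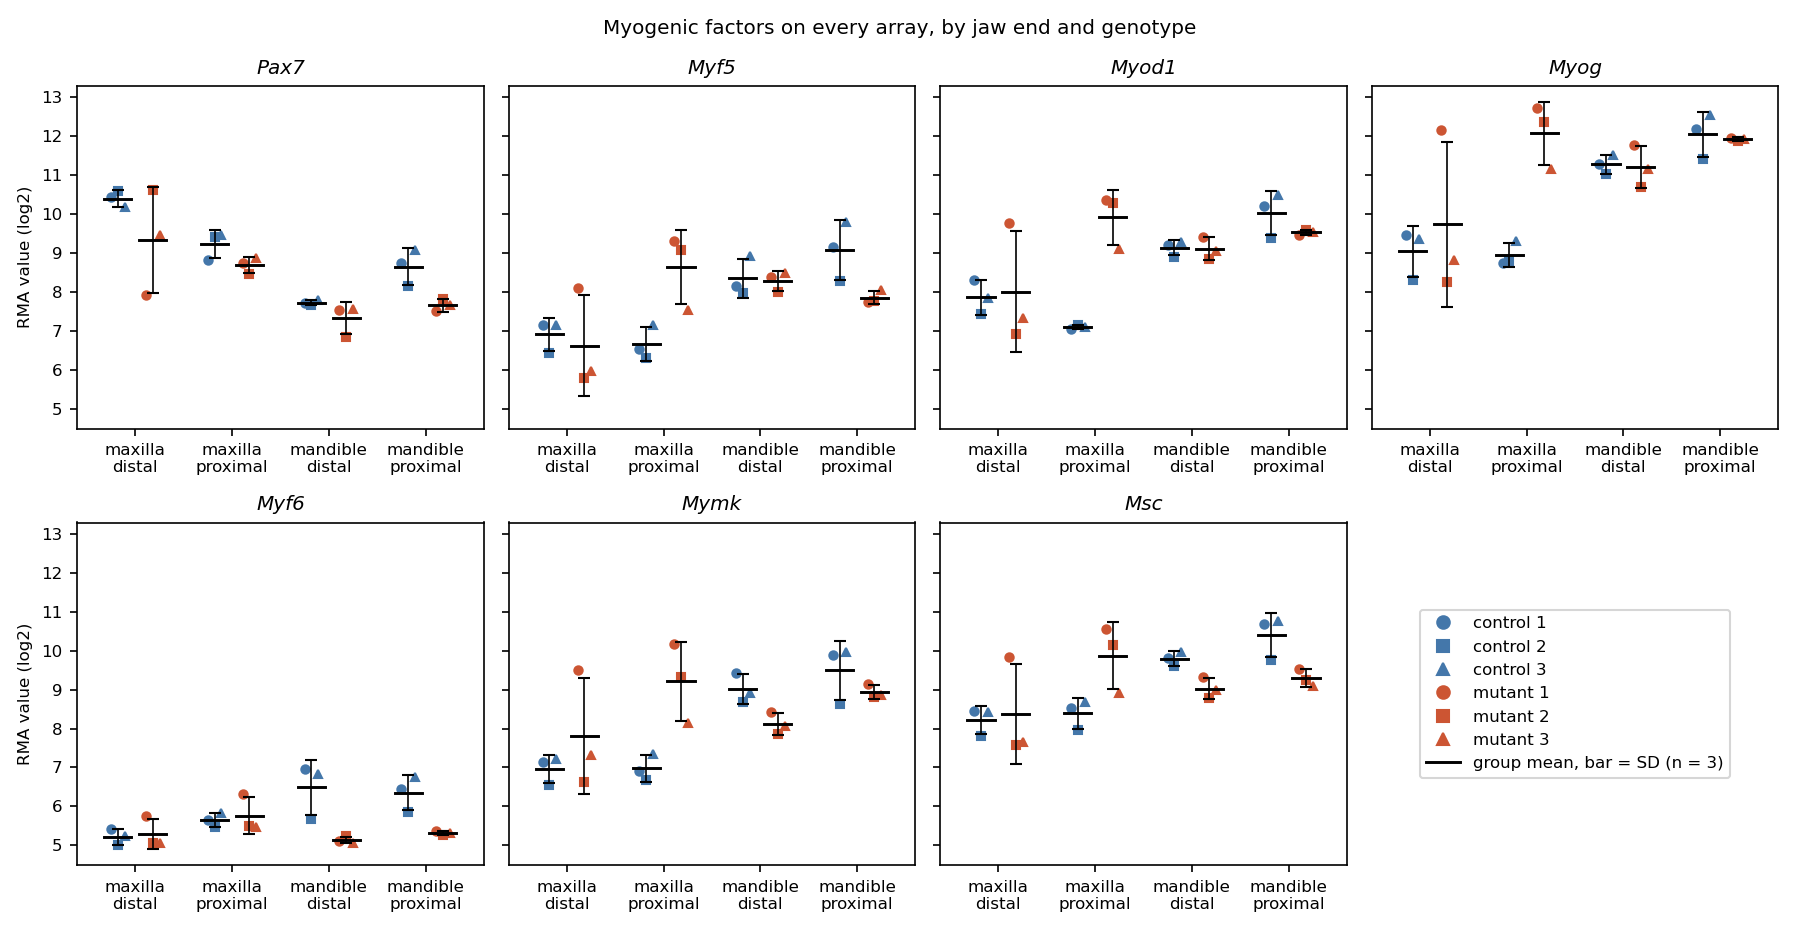
RMA value (log2) of each of the 7 genes on every array, by jaw end (horizontal axis) and genotype (blue control, red mutant; symbols give replicate numbers 1 to 3; lines are group means and bars the SD). Myf5, Myod1, Myog, Mymk and Msc sit low in control maxilla and high in mandible and in mutant proximal maxilla, Pax7 is highest in distal maxilla, and all 6 mutant mandible arrays lie below all 6 control mandible arrays for Myf6 and for Msc.

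In control embryos 5 of the members were higher in the lower than in the upper jaw at the proximal ends, and Pax7 was lower in the lower jaw at the distal ends. At the proximal ends, Myod1 was 7.05, 7.16 and 7.11 in the maxilla and 10.21, 9.39 and 10.48 in the mandible. Myog was 8.74, 8.80 and 9.30 in the maxilla and 12.18, 11.42 and 12.54 in the mandible. Both factors were therefore well separated between jaws, with tight maxilla values. Myod1 was 2.92 ± 0.51 higher (log2, SE, n = 3 against 3; 7.56-fold; adjusted p = 0.00028) and Myog 3.10 ± 0.68 higher (8.59-fold; adjusted p = 0.00177).

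The other committed and fusion genes had the same order at the proximal ends. Myf5 was 6.53, 6.31 and 7.16 in the maxilla and 9.16, 8.28 and 9.80 in the mandible, which is 2.42 ± 0.53 higher (adjusted p = 0.00185). Mymk was 6.91, 6.68 and 7.35 against 9.89, 8.62 and 9.96, which is 2.51 ± 0.57 higher (adjusted p = 0.00219). Msc was 8.52, 7.95 and 8.69 against 10.68, 9.76 and 10.76, which is 2.02 ± 0.48 higher (adjusted p = 0.00314). Groups did not overlap for any of these 5, as for 51.7% of all genes tested, and 5 of 6 tested members passed, where 33.6% of all genes tested passed in either direction and 16.6% were higher. The members' median difference was 2.46, against 0.02 over all genes tested. Of 28 contractile genes tested, 27 were higher (median 3.13) and 0 lower, with Myh8 (perinatal myosin) at 4.08 and Neb (nebulin) at 3.81. Of 15 excitation genes 14 were higher and 0 lower, and of 16 fusion genes 9 were higher and 3 lower. Other lists of muscle regulators did not have that order: of 12 upstream head muscle factors 1 was higher and 8 lower (median -0.84), and of 21 inhibitors and Notch pathway genes 4 were higher and 4 lower. With the nasal list mean as a covariate, 0 of the 6 members passed, and with the contractile list mean 1, Myod1.

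At the distal ends of control jaws, Myog was 9.46, 8.30 and 9.36 in the maxilla and 11.29, 11.03 and 11.52 in the mandible, 2.24 ± 0.68 higher (adjusted p = 0.0474). Mymk was 7.14, 6.54 and 7.21 against 9.42, 8.67 and 8.92, which is 2.04 ± 0.57 higher (adjusted p = 0.0324). Msc was 8.44, 7.81 and 8.43 against 9.81, 9.60 and 9.97, which is 1.57 ± 0.48 higher (adjusted p = 0.0483). The groups lay apart for each, yet none of these 3 calls survived leaving out any 1 of the 6 arrays, where adjusted p ran from 0.0545 to 0.142. Myod1 (8.32, 7.43 and 7.84 against 9.21, 8.91 and 9.29) and Myf5 (7.15, 6.43 and 7.16 against 8.16, 7.98 and 8.92) did not pass, with adjusted p of 0.126 and 0.0968, although their groups did not overlap either, as for 33.8% of all genes tested. In the fit without the filter, Myog (adjusted p = 0.0569) and Msc (adjusted p = 0.0581) also missed the threshold, and Myf6 passed at 1.26 ± 0.29 higher (adjusted p = 0.0163).

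Pax7 was far lower in the distal mandible than in the distal maxilla. It was 10.43, 10.59 and 10.17 in control distal maxilla and 7.72, 7.67 and 7.79 in control distal mandible, a fall of -2.67 ± 0.42 (6.36-fold; adjusted p = 0.00148). This call held when any 1 of the 6 arrays was left out, and was lost with the nasal list mean (-2.21, adjusted p = 0.0746) or the contractile list mean (-1.65, adjusted p = 0.118) as a covariate. A second Pax7 probe set gave 8.59 to 9.15 against 6.43 to 6.71. In all, 4 of 6 members passed at the distal ends, where 8.81% of all genes did, and 3 of them were higher, where 3.08% of all genes were. At the proximal ends Pax7 was 8.81, 9.41 and 9.45 in the maxilla and 8.74, 8.15 and 9.07 in the mandible, groups that overlapped (-0.57 ± 0.42, adjusted p = 0.328). Nasal markers moved with the jaws too, since 7 of 10 tested were lower in control distal mandible and 10 of 10 in control proximal mandible; with their mean as a covariate, 0 of 6 members passed at either end.

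Between the ends of a control jaw, no member passed. In the maxilla Pax7 was 1.17 ± 0.42 higher distally, with no overlap, as for 32.7% of all genes (adjusted p = 0.0978; 8.42% of all genes passed), and it passed without the 3 mutant maxilla arrays that stood apart (adjusted p = 0.0133). In the mandible Pax7 was -0.92 ± 0.42 lower distally, again with no overlap, as for 28.4% of all genes (adjusted p = 0.262, where 5.78% of all genes passed). Myod1 did not overlap between the ends of either jaw and had the same signs as Pax7. It was 0.76 ± 0.51 higher distally in the maxilla (adjusted p = 0.436) and -0.89 ± 0.51 lower distally in the mandible (adjusted p = 0.408). By unadjusted limma p under 0.05, 1 member passed in each of the 2 jaws, among 2835 and 2245 genes.

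In the proximal maxilla of mutants, 5 muscle factors rose into a range that overlapped the control proximal mandible. Myog was 12.71, 12.35 and 11.16 in mutants, against 8.74, 8.80 and 9.30 in controls. Every mutant array was above every control array, and the lowest mutant was number 3. Its nasal list mean was 2.42, against 3.16 to 3.27 in these controls. Mutants 1 and 2 had nasal means of -1.47 and -1.24, and control proximal mandible had -1.43 to -1.17. Myog rose by 3.13 ± 0.68 (8.75-fold; adjusted p = 0.00348). Myod1 was 10.36, 10.28 and 9.11 against 7.05, 7.16 and 7.11, a rise of 2.81 ± 0.51 (7.02-fold; adjusted p = 0.00112). The commitment factor and the differentiation factor thus changed by similar amounts in the same arrays.

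Myf5 was 9.30, 9.07 and 7.55 in mutant and 6.53, 6.31 and 7.16 in control proximal maxilla, a rise of 1.98 ± 0.53 (3.94-fold; adjusted p = 0.0123). Mymk, the fusion protein, was 10.17, 9.32 and 8.13 against 6.91, 6.68 and 7.35, a rise of 2.22 ± 0.57 (4.67-fold; adjusted p = 0.00904). Msc, the repressor, was 10.56, 10.13 and 8.91 against 8.52, 7.95 and 8.69, a rise of 1.48 ± 0.48 (2.79-fold; adjusted p = 0.0323). For all 3 the mutant array number 3 lay nearest to the highest control and the others further above it. Number 3 and the highest control were 7.55 and 7.16 for Myf5, 8.13 and 7.35 for Mymk, and 8.91 and 8.69 for Msc. Pax7 was 8.75, 8.47 and 8.87 against 8.81, 9.41 and 9.45, with overlapping groups and a difference of -0.52 ± 0.42 (adjusted p = 0.416). Myf6 was 6.31, 5.50 and 5.48 against 5.66, 5.47 and 5.82, a difference of 0.11 ± 0.29 in the fit without the filter (adjusted p = 0.853).

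In this region 5 of 6 tested members passed, all higher, while 23.3% of all genes tested passed in either direction and 12.2% were higher. The groups did not overlap for these 5, as for 36.2% of all genes. The members' median difference was 2.10 and that of all genes 0.01. The 2 mutant arrays low in nasal and cartilage markers carried much of the size. Without the 3 maxilla arrays that stood apart, mutant 3 alone was compared with the 3 controls and was assumed to vary like the other groups. Myod1 was then 2.00 ± 0.35 higher (adjusted p = 0.0107) and Myog 2.22 ± 0.47 higher (adjusted p = 0.0338). Myf5 (0.89, adjusted p = 0.472), Mymk (1.15, adjusted p = 0.288) and Msc (0.53, adjusted p = 0.623) no longer passed, where 1.24% of all genes did.

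Leaving out single arrays bore on the same members. Without mutant 1, Myf5 (1.65, adjusted p = 0.0812), Mymk (1.74, adjusted p = 0.0713) and Msc (1.13, adjusted p = 0.18) missed the threshold. Without mutant 2, Myf5 (1.76, adjusted p = 0.0633) and Msc (1.35, adjusted p = 0.114) missed it. Msc also missed it without control 1 (1.55, adjusted p = 0.0658) and without control 2 (1.26, adjusted p = 0.116). Myod1 and Myog passed without each of the 6 arrays. With the nasal list mean as a covariate, no member passed (Myod1 1.74, adjusted p = 0.421, and Myog 1.89, adjusted p = 0.578), where 15 of all genes did. The nasal mean was itself higher on every control array here (3.16 to 3.27) than on every mutant array (-1.47 to 2.42). That fit therefore cannot separate genotype from the nasal mean. In a fit of these 6 arrays alone, Myod1 and Myog passed.

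**Figure D2:**
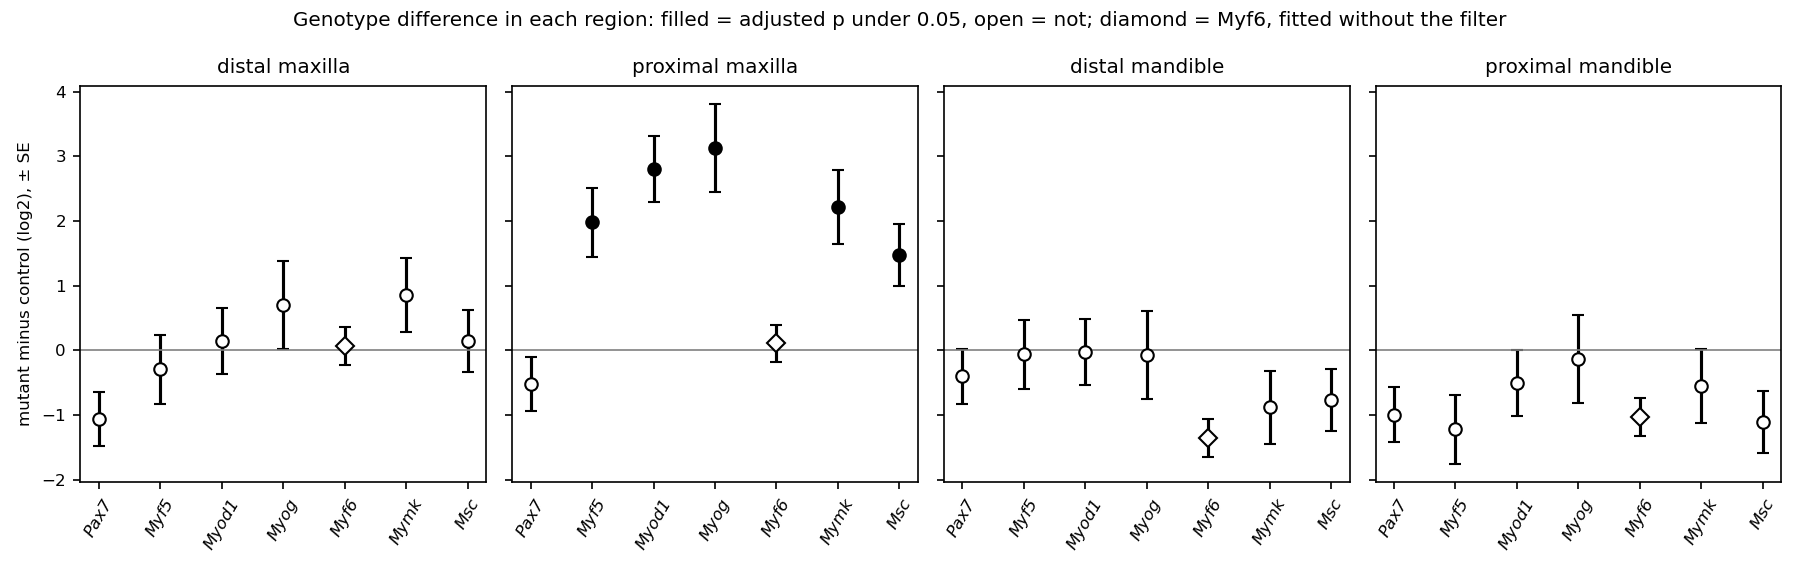
Mutant minus control difference (log2, vertical axis) with its SE for each of the 7 genes in the 4 regions, 3 against 3 arrays each; filled points passed an adjusted p of 0.05 and diamonds are Myf6, fitted without the filter. The 5 filled points are all in the proximal maxilla, between 1.48 and 3.13; Myf6 in the distal mandible (-1.35) passed only in the fit without the filter.

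Genes that act beside the members moved with them in the proximal maxilla. Among fusion and adhesion genes, 8 of 16 tested rose and 1 fell, led by Mymx (myomixer, which acts with myomaker in fusion) at 3.64 ± 0.76 and Cav3 (caveolin-3 of the muscle membrane) at 2.43 ± 0.62. Of 15 neuromuscular and excitation genes, 9 rose, among them the acetylcholine receptor subunit Chrna1 at 2.71 ± 0.56 and Rapsn, which clusters the receptor, at 1.44 ± 0.37. Of 28 contractile genes, 16 rose and 0 fell, with Tnnt2 (a troponin T) at 3.11 ± 0.85 and Mybph at 2.97 ± 0.76. The medians were 0.44, 1.36 and 2.34 for these 3 lists, against 0.01 for all genes. Of all genes tested, 23.3% passed in either direction and 12.2% were higher.

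The nuclear partners were less uniform. Of 15 cofactors and targets, 8 rose and 1 fell: Smyd1, a muscle methyltransferase, was 1.99 ± 0.42 higher, Mef2c 0.77 ± 0.14 higher and Mef2b -1.57 ± 0.35 lower. Of 21 inhibitors and Notch pathway genes, 10 rose and 1 fell, and Twist2, a repressor of myogenic factors that is also a mesenchymal gene, was 2.97 ± 0.51 higher while Hey1, a Notch target, was -1.02 ± 0.19 lower. Of 12 upstream head muscle factors tested, 0 rose and 5 fell, including Eya1 (-1.51 ± 0.37), Eya2 (-1.50 ± 0.37) and Lhx2 (-2.77 ± 0.87). Eya1, Eya2 and Lhx2 are also known from nasal and sensory tissue, and 9 of 10 olfactory and nasal markers fell in the same comparison (median -3.44), with 6 of 11 neuron markers and 9 of 14 cartilage markers; their part in these falls was not tested. Genes of the jaw's other tissues moved as well. Of 12 tendon genes 5 rose, with Kera at 2.58 ± 0.45, and 2 fell, with Fmod at -1.24 ± 0.27. Of 5 smooth muscle genes 3 rose, and of 10 epithelium genes 4 rose and 4 fell. Of 15 growth and niche signals 5 rose, with Tgfbr3 (a TGF-beta co-receptor) at 1.82 ± 0.23, and 1 fell. Tgfbr2, the targeted gene, was among those 5 (0.78 ± 0.09). Whether its probe set reads the deleted part is not known here. Of 7 osteoblast genes 0 passed. The counts in this paragraph stand beside 23.3% of all genes tested that passed in either direction and 12.2% that were higher. All genes named in these lists passed with adjusted p from 8.9e-05 to 0.0283.

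Without the 3 maxilla arrays that stood apart, most of these list calls were lost, and 1.24% of all genes passed. Of 16 fusion genes 1 passed, Mymx (2.53 ± 0.53, adjusted p = 0.033), and of 15 excitation genes 1, Chrna1 (1.69 ± 0.36, adjusted p = 0.0353). Among 15 growth and niche signals, Tgfbr3 was 1.58 higher and Tgfbr2, the targeted gene with the limit given above, 0.55 higher. The ligand Tgfb2 and, among 12 tendon genes, Egr1 were also higher. None passed among 28 contractile genes, 15 cofactors, 21 inhibitors, 12 upstream factors, 10 nasal, 11 neuron or 14 cartilage markers. The contractile median was then 1.14, that of excitation genes 0.41, of fusion genes 0.13 and of all genes 0.01. Smyd1 was 1.00 higher (adjusted p = 0.165), Twist2 2.67 higher (adjusted p = 0.0907) and Lhx2 -0.56 lower (adjusted p = 0.876).

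In the distal maxilla no member passed in mutants, and the 3 arrays were far apart. Myog was 12.16, 8.25 and 8.81 in mutants and 9.46, 8.30 and 9.36 in controls. Pax7 ran the other way, at 7.93, 10.62 and 9.45 in mutants and 10.43, 10.59 and 10.17 in controls. Mutant distal 1, low in nasal and cartilage markers, was thus the array with high Myog and low Pax7. It was also the highest mutant for Myod1 (9.78 against 6.92 and 7.33), Mymk (9.49 against 6.64 and 7.32), Myf5 (8.11 against 5.79 and 5.98) and Msc (9.84 against 7.58 and 7.66). Its contractile list mean was 1.15, against -2.54 and -1.81 on the others.

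The distal maxilla differences were 0.70 ± 0.68 for Myog (adjusted p = 0.827), 0.86 ± 0.57 for Mymk (0.707 adjusted p) and -1.06 ± 0.42 for Pax7 (0.449 adjusted p), with 0 of 6 members and 0.195% of all genes past the limma threshold. At an unadjusted p under 0.05, 1 member and 1177 genes passed. Without array 1, the signs of Myog (-0.51), Myod1 (-0.74) and Msc (-0.60) were negative, none past the threshold (adjusted p 0.86, 0.409 and 0.644). Myf5 on the other mutant arrays was 5.79 and 5.98, below the controls at 7.15, 6.43 and 7.16.

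In the mandible of mutants, Myod1 and Myog overlapped their controls, while Myf6, Msc and Pax7 lay below theirs at both ends. In the distal mandible Myod1 was 9.42, 8.84 and 9.06 in mutants against 9.21, 8.91 and 9.29 in controls, and Myog was 11.77, 10.70 and 11.16 against 11.29, 11.03 and 11.52. These values overlapped fully, with differences of -0.03 ± 0.51 and -0.07 ± 0.68. Myf5 was 8.38, 8.0 and 8.49 against 8.16, 7.98 and 8.92, a difference of -0.06 ± 0.53.

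Myf6 behaved differently there. It was 5.12, 5.23 and 5.07 in mutant and 6.97, 5.67 and 6.83 in control distal mandible, and 5.37, 5.27 and 5.33 in mutant and 6.44, 5.86 and 6.75 in control proximal mandible. Every mutant array lay below every control array at both ends. The mutant values sat in the range of the control distal maxilla (5.00 to 5.42) and below that of the control proximal maxilla (5.47 to 5.82). In the fit without the filter, Myf6 was -1.35 ± 0.29 lower at the distal end (adjusted p = 0.0416) and -1.03 ± 0.29 lower at the proximal end (adjusted p = 0.07). Myf6 entered no other fit, so these values were not checked with left-out arrays, weights or blocks. Of the distal controls, number 2 (5.67) lay nearest to the mutants. Mutant distal mandible 2, whose cartilage mean was within the range of the controls, was below the controls too, at 5.23; the part of the low cartilage means of numbers 1 and 3 in the mandible results was not tested. The signal of Myf6 never exceeded the array median, on 0 of 24 arrays, and values near background understate a change.

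Msc was also below the controls at both ends. It was 9.31, 8.77 and 8.99 against 9.81, 9.60 and 9.97 distally (-0.77 ± 0.48, adjusted p = 0.544) and 9.53, 9.25 and 9.08 against 10.68, 9.76 and 10.76 proximally (-1.11 ± 0.48, adjusted p = 0.201). The groups did not overlap at either end, but neither difference passed, and the groups of 22% of all genes tested did not overlap distally and of 24.2% proximally. Mymk was 8.43, 7.85 and 8.07 against 9.42, 8.67 and 8.92 distally, without overlap (-0.88 ± 0.57, adjusted p = 0.557), and 9.14, 8.81 and 8.85 against 9.89, 8.62 and 9.96 proximally, with overlap (-0.55 ± 0.57, adjusted p = 0.649).

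At the proximal mandible, Myog (11.96, 11.87 and 11.93 against 12.18, 11.42 and 12.54) and Myod1 (9.47, 9.59 and 9.53 against 10.21, 9.39 and 10.48) again overlapped the controls, with differences of -0.13 ± 0.68 and -0.50 ± 0.51. Myf5 was 7.75, 7.78 and 8.04 against 9.16, 8.28 and 9.80, a difference of -1.22 ± 0.53 without overlap (adjusted p = 0.209). Pax7 was 7.50, 7.83 and 7.66 against 8.74, 8.15 and 9.07, a difference of -0.99 ± 0.42 without overlap (adjusted p = 0.202). At the distal end Pax7 was 7.55, 6.85 and 7.57 against 7.72, 7.67 and 7.79, also without overlap (-0.40 ± 0.42, adjusted p = 0.759). The replicates of mutant proximal mandible were much tighter than those of the controls for Myog (SD 0.05 against 0.58) and Myod1 (SD 0.06 against 0.57).

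By limma, 0 of 6 members passed at the distal mandible, where 0.742% of all genes did, and 0 of 6 at the proximal mandible, where 4.34% did. At an unadjusted p under 0.05, 0 and 3 members passed, among 1620 and 2492 genes. Without the 3 maxilla arrays that stood apart, which enter the shared estimate of the spread, Pax7 (adjusted p = 0.0475), Myf5 (adjusted p = 0.0401) and Msc (adjusted p = 0.018) passed at the proximal mandible, among 915 genes. The same 3 passed with array weights, among 1693 genes, where the fit as set called 556. With the replicate number as a block, 0 of 6 passed at either end, among 354 and 1356 genes.

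With both mandible ends averaged, a contrast added after the values were seen, all 6 mutant arrays were below all 6 control arrays for Msc (8.77 to 9.53 against 9.60 to 10.76) and for Myf6 (5.07 to 5.37 against 5.67 to 6.97), where 2.72% of all genes tested had groups that did not overlap in either direction. Myf6 fell by 1.19 ± 0.21 (2.28-fold, adjusted p = 0.00277) in the fit without the filter. No other setting was run for Myf6, so this value was not checked with blocks, weights or left-out arrays. Msc was -0.94 ± 0.34 lower (1.92-fold; adjusted p = 0.102), and with the replicate number as a block it passed (adjusted p = 0.0406). Both ends of 1 number may come from 1 embryo, and with genotype and number as a random block the adjusted p of Msc was 0.197. Myod1 (-0.26 ± 0.36) and Myog (-0.10 ± 0.48) did not pass. No tested member passed in the fit as set, where 6.71% of all genes did, and 2 members had an unadjusted p under 0.05.

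Muscle genes of several lists fell in the mutant mandible. Averaged over both ends, 8 of 28 contractile genes fell and 0 rose (median -1.36, against 0.00 for all genes), with Ckm (muscle creatine kinase) at -3.24 ± 0.42, Myh8 at -2.87 ± 0.79 and Myom2 (a protein of the sarcomere's M band) at -2.31 ± 0.58. Of 15 excitation genes 3 fell, namely Atp1b4 (-3.61 ± 0.40), Ryr1, the calcium release channel (-1.43 ± 0.39), and Atp2a1, the calcium pump (-1.30 ± 0.37). Csrp3 (-2.24 ± 0.41) and Ankrd1 (-1.62 ± 0.28), both linked to load and stretch in muscle, fell among the nuclear cofactors and targets, where 3 of 15 fell. Of 16 fusion and adhesion genes, 2 fell, among them the laminin receptor Itga7 (-0.63 ± 0.15). Of 12 upstream head muscle factors, 0 passed in either direction. The medians were -0.73 for excitation, -0.07 for cofactors, -0.13 for fusion and 0.04 for upstream factors. Of all genes tested, 6.71% passed in either direction. At the single ends, 1 contractile gene fell distally and 3 proximally, and 1 excitation gene fell at each end. Of the cofactors 0 fell distally and 3 proximally, and of the fusion genes 0 and 1. Of all genes, 0.742% passed distally and 4.34% proximally. The averaged contrast was added after the values were seen, and it counted both ends of 1 number as separate although they may share 1 embryo.

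Tendon genes, expressed by crest-derived cells to which jaw muscle attaches, fell in the same arrays. Of 12 tested, 6 fell and 0 rose (median -0.61), including Scx (-1.33 ± 0.14), Tnmd (-1.48 ± 0.20), Fmod (-1.38 ± 0.19) and Thbs4 (-2.46 ± 0.44). Among 15 growth and niche signals, the ligand Tgfb2 was 0.62 ± 0.06 higher and Spry1, an inhibitor of growth factor signalling, -0.34 ± 0.09 lower; 2 rose and 1 fell in all. Of 21 inhibitors and Notch genes, 3 rose, all by small amounts (Snai2 0.30, Id3 0.24 and Rbpj 0.18). Beside these counts, 6.71% of all genes tested passed in either direction. At the single ends, 3 tendon genes fell distally and 3 proximally. The adjusted p of the genes named for the averaged mandible ran from 5.8e-06 to 0.0431. The part of the tendon gene difference in that of Myf6 was not tested.

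**Figure D3:**
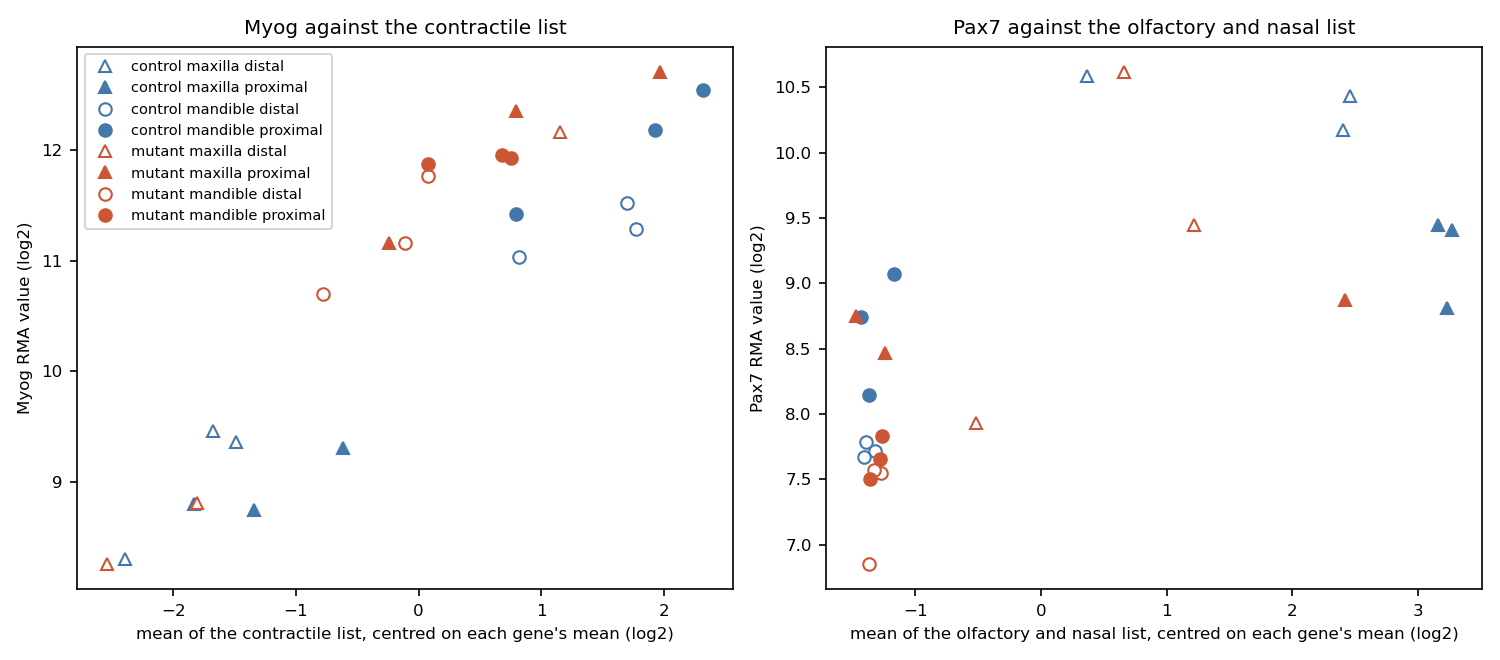
Left, Myog (log2) against the mean of the contractile list on each of 24 arrays; right, Pax7 against the mean of the olfactory and nasal list (each list mean centred per gene; blue control, red mutant, triangles maxilla, circles mandible, filled proximal, open distal). The mutant mandible arrays lie to the left of the control mandible arrays at overlapping Myog values, and the highest Pax7 values (10.17 to 10.62) are all in distal maxilla arrays.

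The contractile list mean was lower in mutant than in control mandible while Myog overlapped. That mean was -0.78 to 0.08 in mutant distal mandible, below the 0.82 to 1.77 of the controls, and 0.08 to 0.75 in mutant proximal mandible, below 0.79 to 2.32. Whether Myog and the contractile genes differed in their response was not tested.

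The effect of genotype differed between the jaws at the proximal ends. The mutant minus control difference was lower in the mandible than in the maxilla for Myod1 (-3.31, adjusted p = 0.0148), Myf5 (-3.20, adjusted p = 0.019), Myog (-3.26, adjusted p = 0.0394), Mymk (-2.78, adjusted p = 0.0367) and Msc (-2.59, adjusted p = 0.0259). Thus 5 of 6 members passed, all lower, where 10.3% of all genes passed and 6.24% were lower. Without the 3 maxilla arrays that stood apart, Myod1 passed (-2.50, adjusted p = 0.0169) and the others did not. Every one of the 5 missed the threshold without mutant proximal maxilla 1 (Myod1 -3.09, adjusted p = 0.0513, and Myog -2.94, adjusted p = 0.112), and 1 member passed without mutant proximal maxilla 2. Calls other than that of Myod1 were lost without other proximal arrays too. Myog, Mymk and Msc missed it without control maxilla 1 or 2 or control mandible 1 or 3. Myog and Mymk also missed it without any 1 mutant mandible array, Myog without control maxilla 3, and Myf5 without control mandible 3.

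At the distal ends the difference between jaws passed for 0 of 6 members and 0.0156% of all genes (1 member and 1130 genes at an unadjusted p under 0.05). Between the ends of the maxilla it passed for 0 members and 0.00781% of genes (3 members and 1360 genes unadjusted), and without mutant distal maxilla 1 for 4 members. Between the ends of the mandible it passed for 0 members and 0% of genes (0 members and 1025 genes unadjusted). Averaged over the 4 regions, 0 of 6 members passed, where 1.09% of genes did. Pax7 came closest, at -0.74 ± 0.14 (8.26 against 9.0, n = 3 averages a genotype, no overlap, as for 21.8% of all genes, adjusted p = 0.0696), and at an unadjusted p under 0.05 it was the 1 member that passed, among 2138 genes. For Myog the regional average joins differences from 3.13 in the proximal maxilla to -0.13 in the proximal mandible.

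Across all 24 arrays 5 of the genes varied closely together, Myf6 less so and Pax7 in the other direction. Myod1 and Myog correlated at 0.98 (Pearson's r, as a description, since arrays of 1 group share a dissection site), Mymk and Msc at 0.95, and Myf5 and Msc at 0.94. Myf6 was looser, at 0.46 with Myod1 and with Myog and at 0.72 with Msc. Its neighbour Myf5 correlated with it at 0.61. Pax7 correlated with the others at -0.69 to -0.19, with the contractile mean at -0.61 and with the nasal mean at 0.67. Within groups, as deviations from group means, Pax7 correlated at 0.25 with the nasal mean and -0.61 with Myog, while Myod1 and Myog remained at 0.98. Mutant distal maxilla, the group with the odd array 1, had the widest spread of both genes (SD 1.35 for Pax7 and 2.11 for Myog). Its weight in the -0.61 was not tested, so that value does not describe the other groups.

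**Figure D4:**
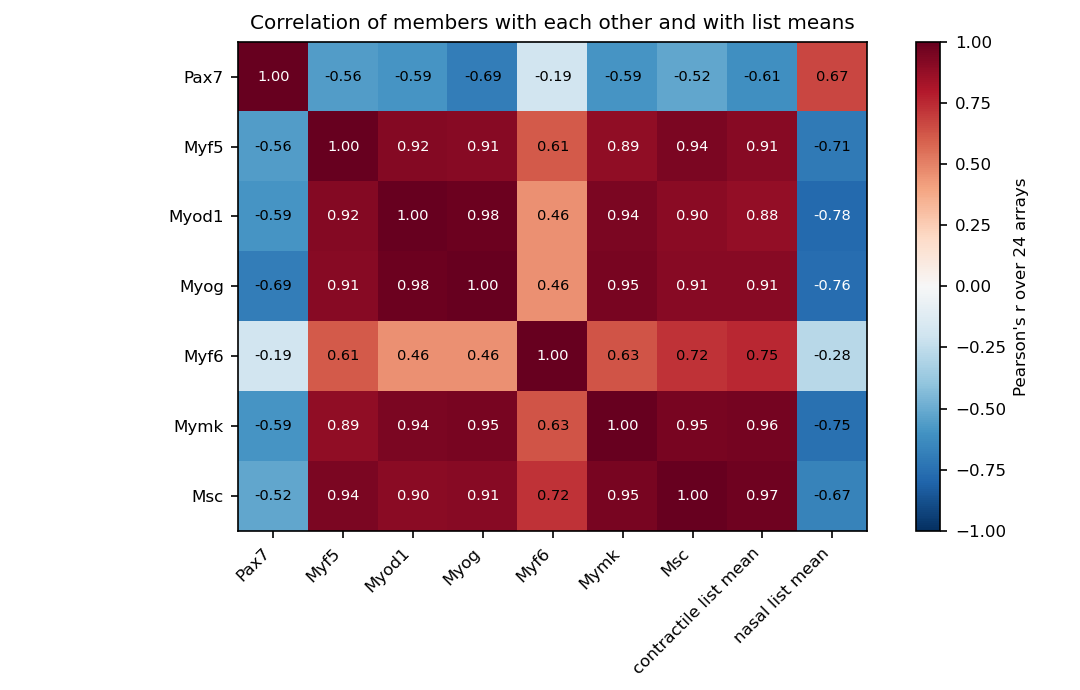
Pearson's r over 24 arrays between the 7 genes, and between each gene and the means of the contractile and nasal lists (red positive, blue negative, value printed). Myf5, Myod1, Myog, Mymk and Msc form a block at 0.89 or above, Myf6 is looser (0.46 to 0.72) and Pax7 is negative with every other member.

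The 3 tested genes with the closest profile were found for each member by Pearson's r over 24 arrays. Those of Myog were Mymx (0.993), Tnnt1 (0.980) and Tnnc1 (0.975), which encode the fusion peptide and troponins of slow fibres. Those of Myod1 were Chrna1 (0.979), Acta2 (0.978), an actin that embryonic skeletal muscle shares with smooth muscle, and Tnnt1 (0.970). Those of Myf5 were Tnnt1 (0.959), Des (0.941), which encodes desmin, and Mylk4 (0.940). Those of Mymk were Des (0.983), Mybph (0.982) and Prr32 (0.982). Msc had Mrln, the calcium pump regulator myoregulin (0.974), Cdh15, the cadherin of myoblasts (0.969), and Smpx (0.967).

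Myf6 had a different company, Ckm (0.942), Tmod1 (0.933), which caps actin filaments, and Atp1b4 (0.926), of which Ckm and Atp1b4 fell in the mutant mandible as given above. Pax7 had B3gat1 (0.898), an enzyme that makes the HNK-1 carbohydrate, the surface receptor Boc (0.892) and Cntnap2 (0.876), a neuronal adhesion protein, and no gene of the contractile list.

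The order of the 8 group means differed accordingly. For Myod1, Myf5, Mymk and Msc the highest was control proximal mandible (means 10.02, 9.08, 9.49 and 10.40, SD 0.57, 0.77, 0.76 and 0.56), followed by mutant proximal maxilla (9.92, 8.64, 9.20 and 9.87), whose range overlapped it each time. For Myog the 2 groups were level, at 12.05 ± 0.58 and 12.07 ± 0.81. The lowest was control proximal maxilla for Myod1 (7.11 ± 0.05) and Myog (8.95 ± 0.31), and control distal maxilla for Mymk (6.96 ± 0.37) and Msc (8.22 ± 0.36). Pax7 ran from 10.40 ± 0.21 in control distal maxilla to 7.33 ± 0.41 in mutant distal mandible, and of its 8 groups in order 1 neighbouring pair was separate, control proximal above control distal mandible. Myf6 ran from 6.49 ± 0.71 in control distal mandible to 5.14 ± 0.08 in mutant distal mandible, the same region in the other genotype.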

How the data were processed

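The authors deposited 1 log2 value per probe set and array, and the submitters' processing notes name RMA and Partek 6.6; no source used here gives settings or a genome build. That the scale is log2 was taken from the values (3.44 to 14.8, array medians 6.93 to 7.00). RMA background limits dim genes such as Myf6. Of 45101 probe sets, 34958 had 1 gene symbol, 932 several and 9211 none here; 34754 were matched to RefSeq by identifier, and columns of no listed sample numbered 0. All 24 arrays in 8 groups of 3 entered 1 limma fit (limma 3.58.1, R 4.3.3, two-sided, lmFit and eBayes), with Benjamini-Hochberg adjustment over 12811 genes and a threshold of 0.05; the script was tested on simulated data. For the average of regions, the 4 arrays of a genotype and number were averaged first. Precision is limited by the number of arrays. The members, gene lists, comparisons and motifs were chosen with earlier results of these data known, so no pattern here is independent of those results. All 7 members are named, with up to 4 of the genes that passed in a list, by size, and the 3 genes most like each member; sex-linked genes and clone names were skipped. Same-numbered control and mutant arrays deviated together in the mandible (correlation over genes 0.15 to 0.51 in all 6 pairs). The labels do not say whether the numbers pair samples, and the main fit used no pairing. Alternatives were the filter, probe set rule, fitted arrays, array weights, replicate block, random block, normalization, covariates and left-out arrays.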

Additional observations from a re-analysis of the deposited data

Results flagged for a closer look

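The effect of genotype differed between the jaws at the proximal ends for 5 genes, by the interaction in the fit (mandible minus maxilla, log2): Myf5 -3.20, Myod1 -3.31, Myog -3.26, Mymk -2.78 and Msc -2.59. Mutant arrays were above the controls in the maxilla for all 5, and in the mandible they overlapped (Myod1, Myog, Mymk) or lay below (Myf5, Msc). The 2 mutant proximal maxilla arrays with low nasal and cartilage markers enter each of these values, and their part was not tested beyond the fits without them. Groups of 3 arrays are too small for a check of single outlying arrays.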

How the results depend on the processing

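Counts are of tested members past the threshold (of 6, or of 7 with Myf6 in the fit without the filter), with the count of all genes in brackets. The proximal maxilla count of 5 (2984) was 2 (761) with only the arrays compared, 2 (159) without the 3 maxilla arrays that stood apart, 0 (15) with the nasal covariate, 3 (1000) with the contractile covariate, and 2 to 5 (1363 to 3932) without single arrays. The distal mandible count of 0 (95) was 1 (95) without the filter (Myf6) and 3 (192) with the contractile covariate. The proximal mandible count of 0 (556) was 3 (1693) with array weights, 3 (915) without the 3 maxilla arrays and 2 (1087) with the contractile covariate. The jaw difference of the genotype effect at the proximal ends, 5 (1325), was 1 (50) without the 3 maxilla arrays, 0 with the nasal (3) or contractile (11) covariate and 0 to 5 (213 to 2651) without single arrays; at the distal ends, 0 (2) became 1 (5) with the contractile covariate. The end difference in the maxilla, 0 (1), was 5 (2414) with array weights, 1 (137) with the random block, 1 (38) without the 3 arrays and 0 to 4 (0 to 652) without single arrays. For control jaws at the distal ends, 4 (1129) was 3 (1039) without the filter, now Pax7, Mymk and Myf6, 2 (990) with the mean of probe sets, 6 with array weights (4981), with the random block (2565) or without the 3 arrays (1952), 6 (953) with only the arrays compared, 0 with the nasal (215) or contractile (314) covariate and 1 (389 to 1109) without each single array. At the proximal ends, 5 (4302) was 0 (111) with the nasal and 1 (1731) with the contractile covariate. Between control ends, 0 (1079) in the maxilla was 1 (269) with only the arrays compared, 2 (2859) with array weights, 1 (1744) without the 3 arrays and 2 (1526) with the contractile covariate, and 0 (740) in the mandible was 1 (1779) with array weights and 1 (1107) without the 3 arrays. For the averaged mandible ends, 0 (860) was 1 (773) without the filter, 2 (1050) with only the arrays compared, 3 (2605) with array weights, 1 (1724) with the replicate block, 2 (1349) without the 3 arrays and 3 (1003) with the contractile covariate. For the average of regions, 0 (140) was 1 (675) with array weights, 3 (350) with the contractile covariate and 1 (2521) as the mean of regional contrasts. With the contractile covariate the control distal jaw differences turned to -0.73 for Myog, -0.49 for Mymk and -0.52 for Msc. Both list means differed between the control jaws and between the genotypes in the proximal maxilla. The contractile mean also differed between genotypes in the mandible. No member's call was therefore made from a fit with either. The causes were not tested.

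The replicate block left the member count at 5 in the proximal maxilla and moved the count of genes from 2984 to 4025; it changed the member count for the averaged mandible ends alone. In the maxilla same-numbered arrays correlated at -0.01 to 0.35, a range that overlapped that of the mandible. No cutoff for pairing was set, so whether numbers pair samples in either jaw is not known here. The average of regions without the 3 maxilla arrays was not run, since its averages would then mix regions unequally. No tested member changed its call under repeated quantile normalization, and Myf6 was not refitted there.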
